A study of Mus musculus with 18 samples.

Results

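Amino acid shortage, misfolded protein in the endoplasmic reticulum and other stresses converge on phosphorylation of the translation factor eIF2, which lowers protein synthesis but favours translation of the mRNA for the transcription factor ATF4. ATF4 then raises genes for amino acid uptake, serine, asparagine and proline synthesis, tRNA charging and further stress regulators, often together with C/EBP partners. In the liver the same circuit is known from amino acid deprivation, endoplasmic reticulum stress and drug or solvent injury. Liver RNA was examined here for 37 genes of that circuit, chosen by name from what is known of the pathway: kinases and a phosphatase regulator of eIF2 (3 genes), transcription factors (5), stress effectors (6), enzymes of serine, one-carbon, asparagine and proline metabolism (8), amino acid transporters (5) and cytosolic tRNA synthetases (10). The list was made with earlier results of these data known, so shares of members beside all genes are a description and not a test. The count table lists 54752 genes, of which 21914 passed the filter on low counts, and all 37 members were among the latter. Ddit3 had a further row that overlaps its exons and held 4 counts over all libraries, which was not tested.

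The livers came from male C57BL/6 mice, 6 in each of 3 groups, with 1 library of ribosomal-RNA-depleted total RNA per mouse. Control mice were injected intraperitoneally with corn oil (10 µl per g, 2 times a week) and received a daily oral dose of double distilled water. Cirrhosis mice had the same daily water but injections of 10% carbon tetrachloride (CCl4), a solvent that hepatocytes convert into a toxic radical, at that volume and schedule. Cirrhosis-PTH mice had the CCl4 injections and a daily oral dose of 0.25 mg per g of PTH, which stands for Pien Tze Huang, a Chinese patent medicine, and does not mean the hormone of the parathyroid. All groups ran for 12 weeks from mice bought at 6 weeks of age, and no group had corn oil with PTH. The labels describe 15 mice per group, and how the 6 sequenced ones were picked is not given in the sources used here. The 3 pairwise comparisons share groups, so their values are given side by side and are not independent of each other.

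Total counts ran from 62.5 to 112.3 M per library in Control, from 80.6 to 102 M in Cirrhosis and from 77.7 to 104 M in Cirrhosis-PTH. Loci that collect ribosomal RNA reads took 39.9 to 60.8% of Control counts, 37.1 to 41.0% of Cirrhosis counts and 31.4 to 48.8% of Cirrhosis-PTH counts. Control replicates 7 and 8 had the fewest counts outside those loci, and results were also computed without both. No pair of libraries of a group agreed within sampling noise. The hepatocyte marker Alb stood at a mean of 35064 CPM (counts per M of the scaled library) in Control and 25878 CPM in Cirrhosis, so the tissue label held. The summed level of 8 hepatocyte markers, most of it Alb, was 37798 to 56698 CPM in Control, 24582 to 45871 CPM in Cirrhosis and 38458 to 44597 CPM in Cirrhosis-PTH. Of the 8, 7 passed as lower in Cirrhosis and 6 as higher with PTH. Several lists of markers of other cells moved with the same groups, while others did not. The macrophage list of 9 summed to 168 to 275 CPM, 444 to 719 CPM and 248 to 330 CPM, and 8 of its genes rose in Cirrhosis while Clec4f, of resident Kupffer cells, fell. The stellate cell list of 7 summed to 78.5 to 170 CPM, 525 to 776 CPM and 151 to 396 CPM, and the cholangiocyte list of 5 to 17.8 to 42.0 CPM, 82.8 to 202 CPM and 26.3 to 80.8 CPM. All genes of both lists rose in Cirrhosis, and none of the defining markers of these lists was at 0. Most of the cholangiocyte sum was Spp1, at a mean of 109 CPM in Cirrhosis. With PTH, 7 macrophage genes and all 7 stellate genes fell, but only 2 of the 5 cholangiocyte genes, Spp1 and Sox9. Against Control, 4 macrophage genes, 3 stellate genes and 1 cholangiocyte gene (Krt19, log2 fold change 2.05 ± 0.42) stayed higher in Cirrhosis-PTH. The pericentral hepatocyte list of 7 summed to 4313 to 7121 CPM, 314 to 644 CPM and 3615 to 4815 CPM, with 6 genes lower in Cirrhosis and 7 higher with PTH. The list of 3 proliferation genes summed to 2.90 to 9.36 CPM, 14.9 to 27.1 CPM and 5.67 to 12.0 CPM, and all 3 rose in Cirrhosis and fell with PTH. The neutrophil list of 3 summed to 0.179 to 4.35 CPM, 4.74 to 83.4 CPM and 0.989 to 5.17 CPM, and both of its tested genes rose in Cirrhosis and fell with PTH. The endothelial list of 6 had 1 gene higher and 2 lower in Cirrhosis, and 2 higher and 1 lower with PTH. In Cirrhosis, 1 of 5 T and NK cell genes and 3 of 5 B and plasma cell genes rose. None of these was called with PTH. Cela1, the only exocrine pancreas gene tested, fell in Cirrhosis and was not called with PTH. In bulk liver, more cells of a type and more RNA per cell cannot be told apart, and the part of these cell markers in the results below was not tested.

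ATF4 is known to bind composite C/EBP-ATF response elements, so the RefSeq promoter windows (GRCm38.p6, 250 bases before to 50 after the start site) were searched for the core TGATGNAA, read on the other strand as TTNCATCA. Of the 32 members with a window in the table, 12 (37.5%) held the core on either strand, against 3.97% of all 32851 promoter windows and 4.51% of the 27025 genes with a window. The members were chosen from what is known of the ATF4 pathway. That choice itself favours a higher share, so the difference is no test of the circuit. The longer endoplasmic reticulum stress element was in none of the 32 and in 0.119% of all windows, so no member window matched both searches. The windows below are given 5′ to 3′ on the gene's own strand, with the core in capitals. They were picked to show members with large changes (Slc7a11, with 2 copies, Atf3, Nupr1 and Chac1), a member changed in only some comparisons (Asns), 2 tRNA synthetases (Gars and Aars) and Trib3, whose copy lies after the start site.
Slc7a11, chr3:50443627-50443705, minus strand: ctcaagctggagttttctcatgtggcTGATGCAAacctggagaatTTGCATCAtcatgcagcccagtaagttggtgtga
Atf3, chr1:191183410-191183469, minus strand: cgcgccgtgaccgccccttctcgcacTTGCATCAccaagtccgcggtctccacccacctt
Nupr1, chr7:126625547-126625606, minus strand: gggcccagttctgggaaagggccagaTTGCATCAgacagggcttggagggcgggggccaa
Chac1, chr2:119351023-119351082, plus strand: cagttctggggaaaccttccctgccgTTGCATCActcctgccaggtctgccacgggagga
Asns, chr6:7693210-7693269, minus strand: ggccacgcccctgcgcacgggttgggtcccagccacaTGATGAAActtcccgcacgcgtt
Gars, chr6:55037941-55038000, plus strand: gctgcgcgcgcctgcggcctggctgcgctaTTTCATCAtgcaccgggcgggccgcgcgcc
Aars, chr8:111033704-111033763, plus strand: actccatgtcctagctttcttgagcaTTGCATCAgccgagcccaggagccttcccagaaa
Trib3, chr2:152344028-152344057, minus strand: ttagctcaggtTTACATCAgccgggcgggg

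**Figure D1:**
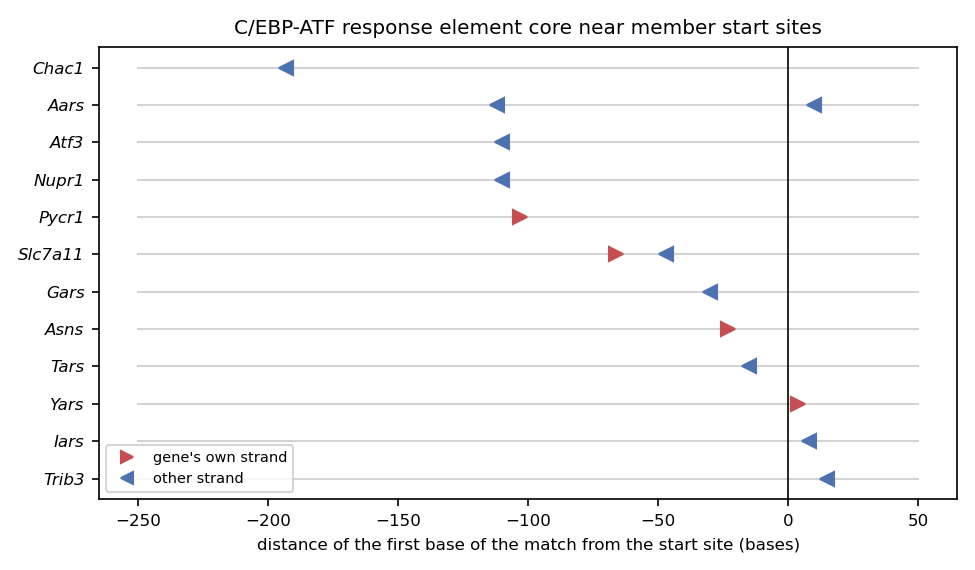
Position of the core TGATGNAA in the promoter windows of the 12 members that hold it; the x axis is the distance in bases of the first base of each match from the RefSeq start site, and arrowheads give the strand. Matches run from 193 bases before the start in Chac1 to 15 bases after it in Trib3, and Slc7a11 and Aars have 2 each.

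The other members with a match were Iars, Pycr1, Tars and Yars. In Chac1 the match began at -193 from the start site, in Atf3 and Nupr1 at -110, in Gars at -30 and in Asns at -23. Slc7a11 had its copies at -66 and -47. The core occurred both in members that changed and in members that did not. In Cirrhosis against Control, 8 of the 12 with a match passed the test as higher and none as lower, with a median log2 fold change of 0.64, and 17 of the 20 without one passed as higher, with a median of 1.27. Aars, Asns, Pycr1 and Tars, which have matches, were the 4 that did not pass. In Cirrhosis-PTH against Cirrhosis, 10 of the 12 with a match passed as lower, with a median of -1.27, and 15 of the 20 without one, with a median of -1.07. A match is a string of letters and shows no binding.

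Most of the circuit was higher in the livers of mice given CCl4. In Cirrhosis against Control, 30 of the 37 members passed the test as higher (edgeR quasi-likelihood F-test, Benjamini-Hochberg adjusted over all genes tested, threshold 0.05), while 25.5% of all genes tested did. Shmt2 alone passed as lower, where 25.0% of all genes did. Slc38a2, Aars, Eprs, Tars, Asns and Pycr1 did not pass. The members' median log2 fold change was 0.99, against 0.015 for all genes tested. Of the members, 18 passed as at least 2-fold higher, and 3117 of all 21914 genes tested did. In 22 members every Cirrhosis mouse lay above every Control mouse, which held for 15.6% of all genes, and in 1 member below, which held for 14.7%. With PTH the direction was the opposite. In Cirrhosis-PTH against Cirrhosis, 30 members passed as lower, against 18.6% of all genes, and Shmt2 as higher, against 20.1%. Their median log2 fold change was -0.97. Slc38a2, Aars, Eprs, Eif2ak4, Stc2 and Pycr1 did not pass. In 25 members every Cirrhosis-PTH mouse lay below every Cirrhosis mouse (11.0% of all genes), and in Shmt2 above (11.8%). In Cirrhosis-PTH against Control, 3 members passed as higher (Atf3, Slc7a1 and Stc2; 6.34% of all genes) and 3 as lower (Shmt2, Asns and Aars; 2.48% of all genes). The other 31 did not pass, and the members' median was -0.049. Across the 3 comparisons, 26 members were higher in Cirrhosis, lower again with PTH, and not called between Cirrhosis-PTH and Control. Over all genes tested, 2815 (12.8%) had that pattern, and the comparisons share their groups.

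**Figure D2:**
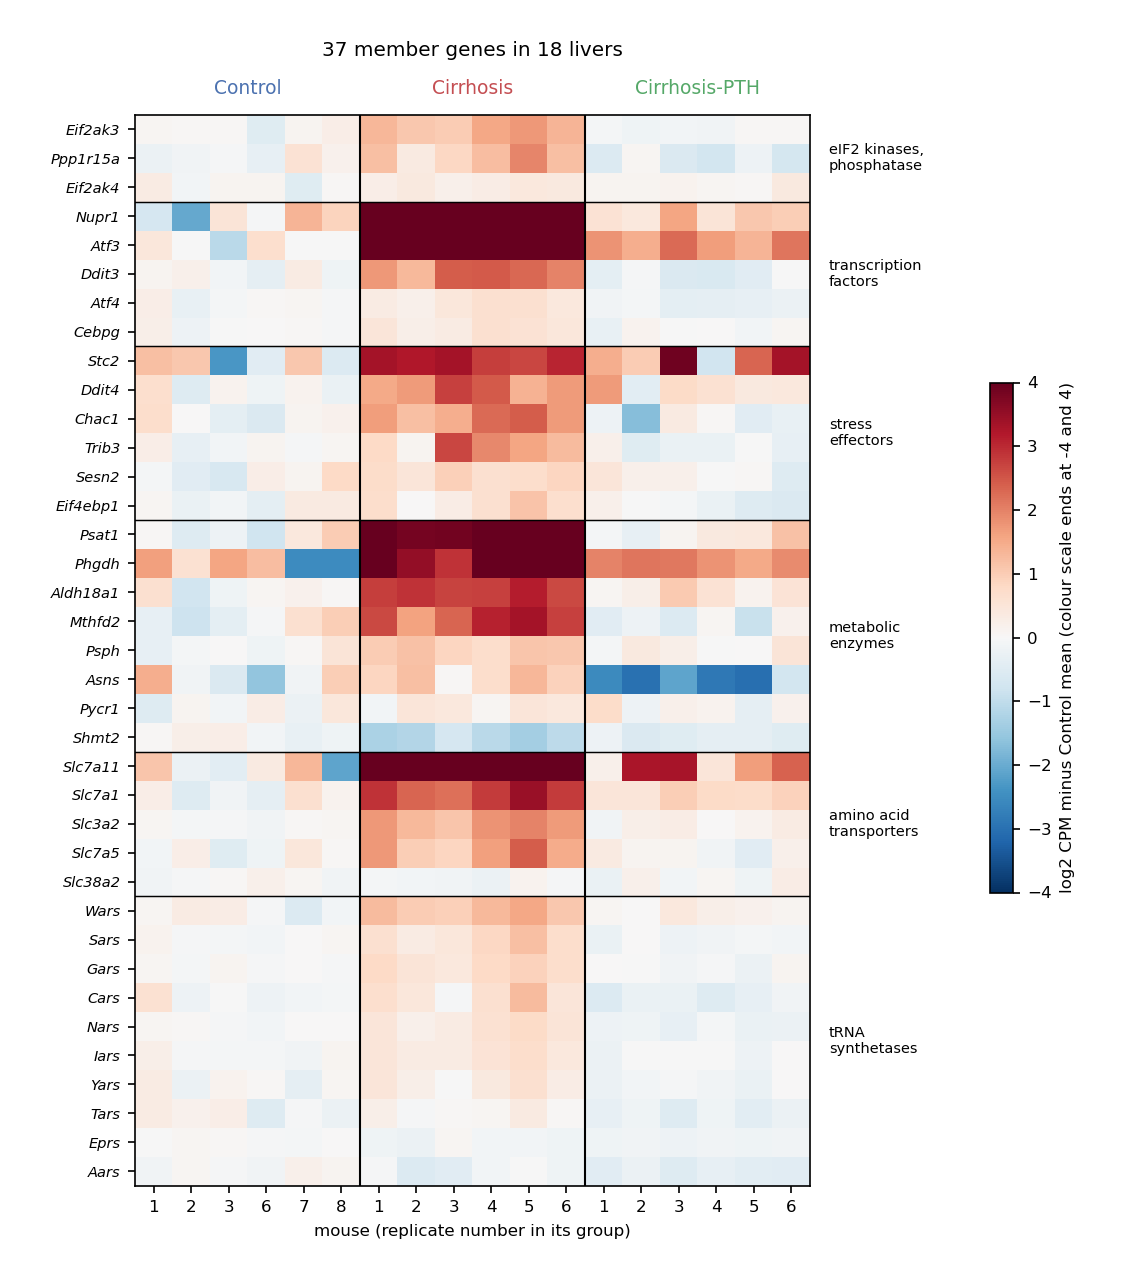
Level of each of the 37 members (rows, grouped by role) in each of the 18 livers (columns, by group and replicate number), as log2 CPM minus the Control mean, with colours ending at -4 and 4. Most rows are red in the 6 Cirrhosis livers only, and Shmt2 is blue there.

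The kinases stood first in the circuit. Eif2ak3 encodes PERK, the eIF2 kinase of the endoplasmic reticulum membrane. Its level ran from 9.29 to 15.7 CPM in Control (median 13.6), from 26.5 to 43.6 CPM in Cirrhosis (median 33.2) and from 11.6 to 13.7 CPM in Cirrhosis-PTH (median 12.3). The Cirrhosis mice lay above both other groups without overlap, and the other groups overlapped. The log2 fold change was 1.35 ± 0.12 (SE) in Cirrhosis against Control (adjusted p = 9.3e-09) and -1.42 ± 0.12 in Cirrhosis-PTH against Cirrhosis (adjusted p = 1.5e-08). Ppp1r15a encodes GADD34, which directs a phosphatase to eIF2 and so reverses the kinases' mark. It ran from 6.25 to 11.7 CPM in Control (median 7.33), from 10.1 to 30.4 CPM in Cirrhosis (median 17.9) and from 4.67 to 8.23 CPM in Cirrhosis-PTH (median 5.26). Cirrhosis was higher by 1.19 ± 0.22 on the log2 scale with some overlap (adjusted p = 0.00017), and Cirrhosis-PTH lay wholly below Cirrhosis, at -1.64 ± 0.22 (adjusted p = 8.6e-06). Eif2ak4 encodes GCN2, the kinase that senses uncharged tRNA. Its medians were close together, at 10.0 CPM in Control, 12.0 CPM in Cirrhosis and 10.2 CPM in Cirrhosis-PTH. Its levels spanned 6.72 to 11.9 CPM, 10.9 to 12.8 CPM and 9.71 to 12.4 CPM, so all groups overlapped. The rise of 0.31 ± 0.10 in Cirrhosis passed the test (adjusted p = 0.018), and the change of -0.18 ± 0.10 with PTH did not (adjusted p = 0.18).

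Atf4 itself (chr15:80255184-80257541, plus strand, GRCm38) changed less than most of the members. Its level was 36.97 to 55.3 CPM in Control (median 46.2), 52.3 to 71.7 CPM in Cirrhosis (median 62.1) and 34.8 to 43.4 CPM in Cirrhosis-PTH (median 37.6). Control and Cirrhosis overlapped at their edges, while Cirrhosis-PTH lay wholly below Cirrhosis. The rise in Cirrhosis was 0.45 ± 0.091 on the log2 scale (adjusted p = 0.00033), and the fall with PTH was -0.71 ± 0.092 (adjusted p = 2.3e-06). Cirrhosis-PTH against Control gave -0.27 ± 0.091, which did not pass (adjusted p = 0.073), although it did without Control replicate 2 (adjusted p = 0.030) or Cirrhosis-PTH replicate 2 (adjusted p = 0.049), in a range of 0.030 to 0.23 over all alternatives. ATF4 is controlled mainly at translation, which RNA levels do not show. Per kilobase of exon, Atf4 had the highest mean level of all members in Cirrhosis (26.6 CPM per kb) and the next highest after Shmt2 in Control (19.6) and Cirrhosis-PTH (16.3). Cebpg, which encodes a C/EBP protein that pairs with ATF4, also rose. Its level was 31.3 to 42.1 CPM in Control (median 36.3), 42.2 to 55.8 CPM in Cirrhosis (median 49.7) and 29.6 to 40.1 CPM in Cirrhosis-PTH (median 35.9). Cirrhosis lay above both other groups, at 0.45 ± 0.083 against Control (adjusted p = 0.00012), and Cirrhosis-PTH was -0.48 ± 0.083 against Cirrhosis (adjusted p = 8.5e-05).

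The stress-induced factors had larger fold changes. Atf3, a repressor and activator of the ATF/CREB family (chr1:191170296-191218039, minus strand), was at 0.186 to 0.679 CPM in Control (median 0.418), 12.9 to 49.4 CPM in Cirrhosis (median 34.5) and 1.10 to 2.099 CPM in Cirrhosis-PTH (median 1.45). The 3 groups were fully separate from each other. Its log2 fold change was 6.13 ± 0.36 in Cirrhosis against Control (adjusted p = 4.2e-10), -4.40 ± 0.31 in Cirrhosis-PTH against Cirrhosis (adjusted p = 1.3e-08) and 1.73 ± 0.34 in Cirrhosis-PTH against Control (adjusted p = 0.0035). No other member was above Control in every Cirrhosis-PTH mouse, as 3.07% of all genes were. Nupr1, a small chromatin protein induced by many stresses, was at 0.0744 to 0.991 CPM in Control (median 0.453), 6.31 to 79.6 CPM in Cirrhosis (median 29.7) and 0.511 to 1.16 CPM in Cirrhosis-PTH (median 0.675). Cirrhosis lay wholly above both other groups, which overlapped. The log2 fold change was 6.14 ± 0.65 in Cirrhosis (adjusted p = 8.0e-07), or 6.79 without both Control replicates 7 and 8, and -5.44 ± 0.60 with PTH (adjusted p = 2.4e-06). Ddit3 encodes CHOP, a factor linked to cell death under prolonged stress. It was at 2.72 to 4.34 CPM in Control (median 3.52), 8.62 to 19.2 CPM in Cirrhosis (median 15.7) and 2.29 to 3.46 CPM in Cirrhosis-PTH (median 2.60). Cirrhosis was separate from both, at 2.08 ± 0.18 against Control (adjusted p = 7.6e-09), and Cirrhosis-PTH was at -2.43 ± 0.18 against Cirrhosis (adjusted p = 4.5e-09). Ddit3 shares 3.97% of its exon bases with Mars on the opposite strand, and whether the counting used strand is not given in the sources used here.

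**Figure D3:**
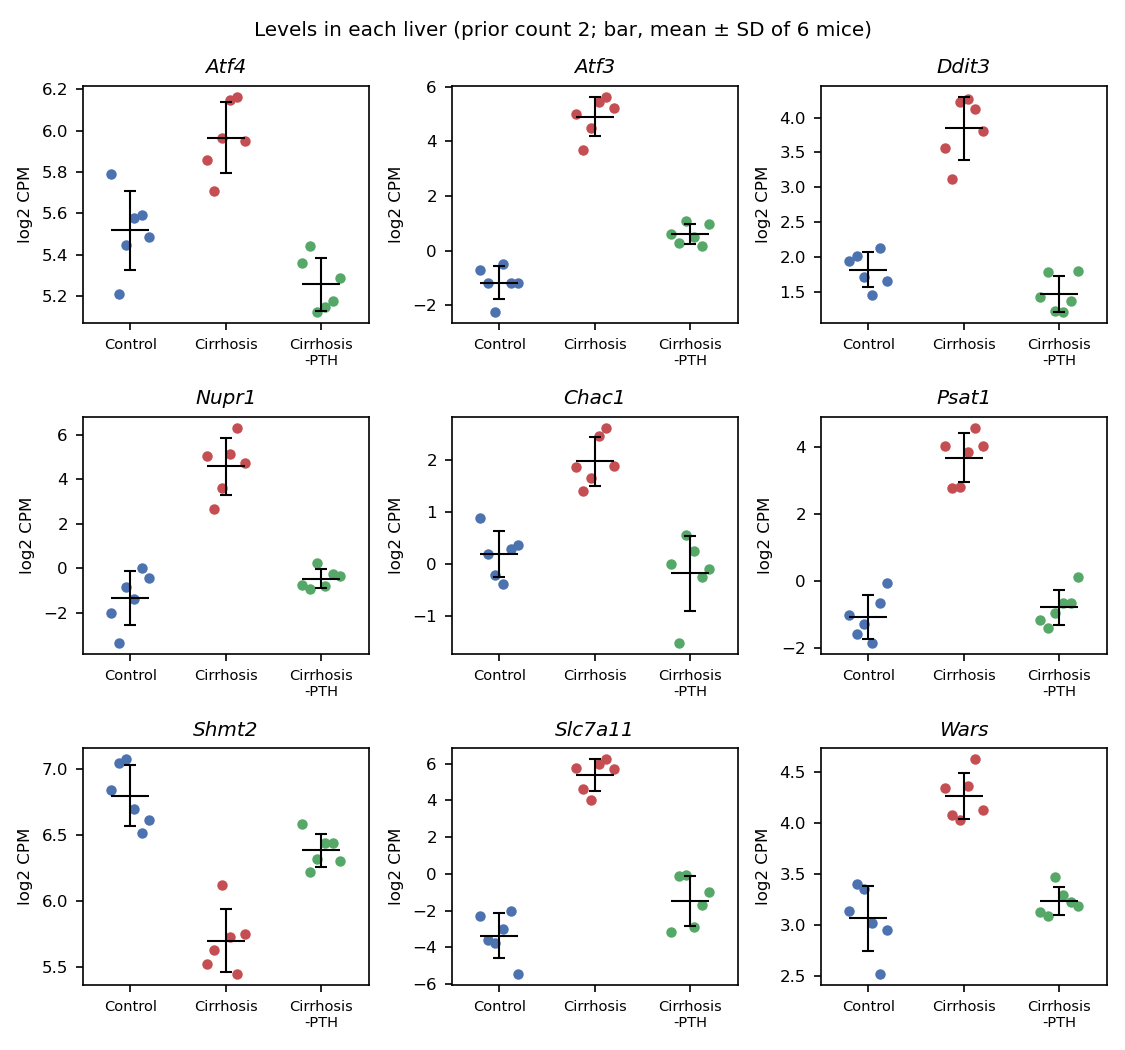
Log2 CPM (prior count 2) of 9 members in each liver by group, 1 point per mouse, with the mean and SD of 6 mice in black. The Cirrhosis mice lie apart from both other groups in every panel except Atf4, where they overlap Control, and they are the lowest group for Shmt2.

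All 6 stress effectors rose in Cirrhosis, and 5 of them fell with PTH. Chac1 encodes an enzyme that breaks down glutathione. It was at 0.750 to 1.83 CPM in Control (median 1.17), 2.62 to 6.16 CPM in Cirrhosis (median 3.67) and 0.326 to 1.45 CPM in Cirrhosis-PTH (median 0.946). Cirrhosis lay wholly above the other groups, with log2 fold changes of 1.82 ± 0.29 (adjusted p = 2.1e-05) and, with PTH, -2.12 ± 0.29 (adjusted p = 5.2e-06). Ddit4 encodes REDD1, an inhibitor of the growth kinase complex mTORC1. Its level was 0.982 to 2.26 CPM in Control (median 1.38), 3.68 to 9.49 CPM in Cirrhosis (median 4.60) and 1.04 to 4.60 CPM in Cirrhosis-PTH (median 2.02). Cirrhosis was clear of Control but overlapped Cirrhosis-PTH, and the log2 fold changes were 1.97 ± 0.31 (adjusted p = 2.6e-05) and -1.296 ± 0.30 (adjusted p = 0.0018). Trib3, a pseudokinase that restrains ATF4 and CHOP, was at 4.81 to 7.30 CPM in Control (median 6.10), 6.52 to 38.5 CPM in Cirrhosis (median 16.2) and 4.27 to 6.99 CPM in Cirrhosis-PTH (median 4.95). The Cirrhosis mice spread widely, and the lowest of them lay within both other groups. It changed by 1.60 ± 0.31 (adjusted p = 0.00028) and -1.79 ± 0.31 (adjusted p = 0.00014).

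Stc2, a secreted glycoprotein, was the effector that did not fall with PTH. It had 0 to 0.243 CPM in Control (median 0.141), 0.717 to 1.13 CPM in Cirrhosis (median 0.987) and 0.0458 to 1.68 CPM in Cirrhosis-PTH (median 0.424). Cirrhosis lay above Control, while the Cirrhosis-PTH mice ranged from the Control level to above the highest Cirrhosis mouse. The change was 2.81 ± 0.68 in Cirrhosis (adjusted p = 0.0018), -0.53 ± 0.59 with PTH (adjusted p = 0.52) and 2.28 ± 0.68 in Cirrhosis-PTH against Control (adjusted p = 0.041). Counts of Stc2 were low, 50 in all of Control. Sesn2, a leucine-binding brake on mTORC1, and Eif4ebp1, a repressor of cap-dependent translation, had smaller changes that overlapped between groups. Sesn2 changed by 0.66 ± 0.19 in Cirrhosis and by -0.63 ± 0.19 with PTH (adjusted p = 0.0069 and 0.012), and Eif4ebp1 by 0.59 ± 0.18 and -0.80 ± 0.18 (adjusted p = 0.0088 and 0.0012).

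The serine branch rose from low levels. Phgdh, Psat1 and Psph encode the successive steps from the glycolytic intermediate 3-phosphoglycerate to serine, and all rose in Cirrhosis and fell with PTH. Psat1 was at 0.254 to 0.942 CPM in Control (median 0.430), 6.78 to 23.6 CPM in Cirrhosis (median 15.2) and 0.355 to 1.06 CPM in Cirrhosis-PTH (median 0.551). No Cirrhosis mouse came near the other groups, which overlapped. The log2 fold changes were 4.89 ± 0.39 (adjusted p = 8.9e-09) and -4.54 ± 0.37 (adjusted p = 3.3e-08). Phgdh, given here in full because it is the first step of the path and after its values were seen, was at 0 to 0.386 CPM in Control, 0.962 to 3.37 CPM in Cirrhosis and 0.354 to 0.553 CPM in Cirrhosis-PTH. It changed by 3.44 ± 0.50 and -2.32 ± 0.46 (adjusted p = 9.2e-06 and 0.00043), on 89 counts in all of Control. Psph, whose exons share 10.4% of their bases with Cct6a on the opposite strand, changed by 0.99 ± 0.16 and -0.81 ± 0.16 (adjusted p = 2.7e-05 and 0.00032).

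Folate enzymes of the mitochondrion went opposite ways. Mthfd2, which oxidises one-carbon units there, was at 0.357 to 1.302 CPM in Control (median 0.572), 2.03 to 6.70 CPM in Cirrhosis (median 4.35) and 0.344 to 0.734 CPM in Cirrhosis-PTH (median 0.521). Cirrhosis lay wholly above the other groups, at 2.65 ± 0.32 against Control (adjusted p = 5.2e-07), and PTH changed it by -3.02 ± 0.32 (adjusted p = 2.0e-07). Shmt2, which converts serine to glycine and feeds those units (chr10:127517123-127522444, minus strand), was at 91.3 to 135 CPM in Control (median 109), 43.6 to 69.6 CPM in Cirrhosis (median 51.2) and 74.4 to 95.5 CPM in Cirrhosis-PTH (median 83.2). Every Cirrhosis mouse lay below every mouse of the other groups, and Cirrhosis-PTH reached into the low end of Control. Shmt2 changed by -1.09 ± 0.11 in Cirrhosis (adjusted p = 5.8e-08), by 0.67 ± 0.11 with PTH (adjusted p = 4.7e-05) and by -0.42 ± 0.11 in Cirrhosis-PTH against Control (adjusted p = 0.018). Shmt2 took most of the counts of its class, and the summed level of the 8 enzymes was 100 to 142 CPM in Control and 84.1 to 104 CPM in Cirrhosis, although 5 of the 8 rose.

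Proline and asparagine synthesis differed too. Aldh18a1, which makes the proline precursor from glutamate, was at 0.789 to 2.14 CPM in Control (median 1.40), 8.59 to 12.1 CPM in Cirrhosis (median 9.20) and 1.43 to 2.81 CPM in Cirrhosis-PTH (median 1.78). Its Cirrhosis mice were tightly grouped and far above the rest. The log2 fold changes were 2.78 ± 0.20 (adjusted p = 6.7e-10) and -2.36 ± 0.20 (adjusted p = 1.3e-08). Pycr1, which completes proline, was at medians of 0.496, 0.674 and 0.556 CPM in Control, Cirrhosis and Cirrhosis-PTH, and no comparison passed. Asns, asparagine synthetase, is a textbook ATF4 target and was described in full after its values were seen. It was at 1.39 to 11.3 CPM in Control (median 3.78), 4.26 to 10.6 CPM in Cirrhosis (median 7.78) and 0.500 to 2.51 CPM in Cirrhosis-PTH (median 0.622). Control spanned the Cirrhosis range, with replicates 1 and 8 at 11.3 and 8.34 CPM, and overlapped only the upper end of Cirrhosis-PTH. The Cirrhosis-PTH median lay below the lowest Control mouse, and Cirrhosis-PTH lay wholly below Cirrhosis. Cirrhosis against Control gave 0.58 ± 0.47 (adjusted p = 0.33), Cirrhosis-PTH against Cirrhosis -3.02 ± 0.51 (adjusted p = 0.00016) and Cirrhosis-PTH against Control -2.43 ± 0.51 (adjusted p = 0.0060).

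**Figure D4:**
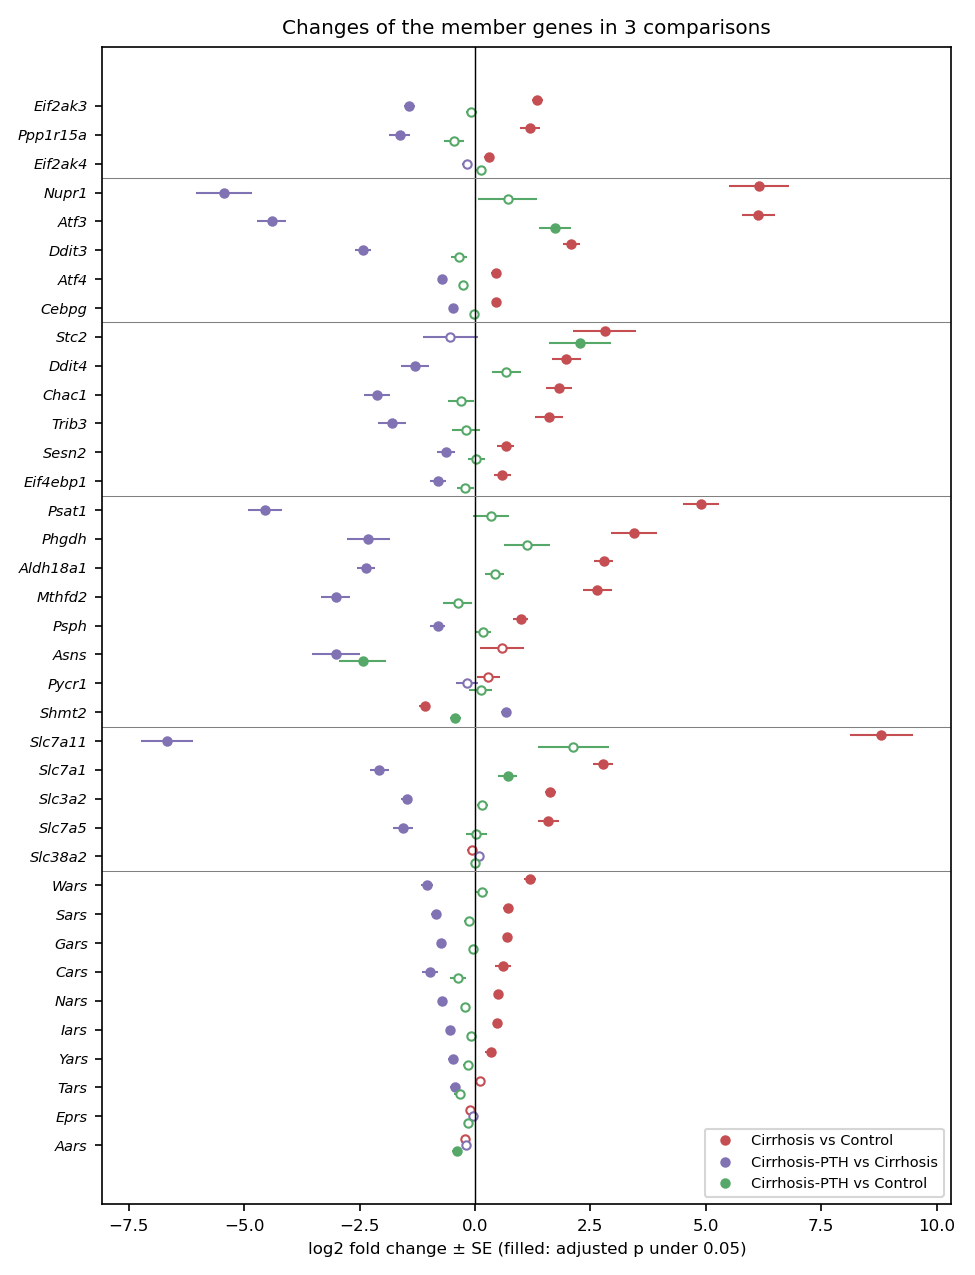
Log2 fold change of each member with its SE in the 3 comparisons, grouped by role; filled points passed the adjusted p threshold of 0.05. Slc7a11 has the largest rise, 8.80, and Shmt2 is the member that passed below 0 in Cirrhosis against Control.

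Of the transporters, 4 of 5 rose in Cirrhosis and fell with PTH. Slc7a11, the cystine-glutamate exchanger that supplies cysteine for glutathione (chr3:49892526-50443614, minus strand), had the widest change of all members. It was at 0 to 0.220 CPM in Control (median 0.0805), 16.4 to 76.3 CPM in Cirrhosis (median 53.4) and 0.0899 to 0.947 CPM in Cirrhosis-PTH (median 0.384). The gene had 40 counts in all of Control, 31959 in Cirrhosis and 247 in Cirrhosis-PTH, and only the last group overlapped Control. The log2 fold change was 8.80 ± 0.68 in Cirrhosis (adjusted p = 2.3e-08), -6.67 ± 0.56 with PTH (adjusted p = 1.5e-07) and 2.13 ± 0.77 in Cirrhosis-PTH against Control (adjusted p = 0.10). DESeq2 called the last of these (adjusted p = 0.011, in a range of 0.011 to 0.33 over all alternatives). Slc3a2, the heavy chain that Slc7a11 and Slc7a5 need at the cell surface, was already present in Control, at 16.1 to 18.8 CPM (median 17.8). It was at 38.3 to 69.3 CPM in Cirrhosis (median 58.5) and 15.9 to 22.1 CPM in Cirrhosis-PTH (median 20.1). Cirrhosis was separate from both, with changes of 1.63 ± 0.12 (adjusted p = 7.1e-10) and -1.48 ± 0.12 (adjusted p = 8.7e-09).

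Slc7a1, a carrier of arginine and lysine, was at 1.09 to 2.45 CPM in Control (median 1.56), 7.27 to 17.4 CPM in Cirrhosis (median 11.02) and 2.18 to 3.09 CPM in Cirrhosis-PTH (median 2.66). Cirrhosis was separate, and Cirrhosis-PTH overlapped only the top of Control. It changed by 2.78 ± 0.22 (adjusted p = 1.5e-09), by -2.07 ± 0.21 with PTH (adjusted p = 1.0e-07) and by 0.71 ± 0.21 in Cirrhosis-PTH against Control (adjusted p = 0.037). Slc7a5, the large neutral amino acid exchanger LAT1, was at 1.90 to 3.63 CPM in Control (median 2.61), 4.81 to 14.3 CPM in Cirrhosis (median 7.84) and 1.95 to 3.44 CPM in Cirrhosis-PTH (median 2.88). Cirrhosis again lay above both, at 1.59 ± 0.23 (adjusted p = 5.2e-06), and PTH changed it by -1.56 ± 0.22 (adjusted p = 9.7e-06). Slc38a2, a sodium-coupled carrier of small neutral amino acids, stayed within 105 to 152 CPM in all livers. Its changes were -0.076 ± 0.091, 0.085 ± 0.091 and 0.0093 ± 0.091 in the 3 comparisons, and none passed.

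The synthetases had the smallest class medians. Of the 10, 7 rose in Cirrhosis with a class median of 0.48, and 8 fell with PTH with a class median of -0.63. Wars, which charges tryptophan tRNA, was at 5.71 to 10.5 CPM in Control (median 8.46), 16.3 to 24.7 CPM in Cirrhosis (median 18.8) and 8.47 to 11.1 CPM in Cirrhosis-PTH (median 9.20). It was the only synthetase at least 2-fold higher, at 1.18 ± 0.13 (adjusted p = 1.4e-07), and PTH changed it by -1.04 ± 0.13 (adjusted p = 1.4e-06). Gars, for glycine, was at 22.3 to 25.5 CPM in Control (median 23.4), 31.8 to 45.02 CPM in Cirrhosis (median 39.4) and 20.1 to 25.3 CPM in Cirrhosis-PTH (median 23.3). Sars, for serine, was at 23.5 to 28.2 CPM (median 25.4), 32.3 to 58.1 CPM (median 40.7) and 21.3 to 25.8 CPM (median 23.4) in the same order. In both genes Cirrhosis stood clear of overlapping Control and Cirrhosis-PTH mice. Gars changed by 0.70 ± 0.080 and -0.75 ± 0.079 (adjusted p = 2.7e-07 and 2.3e-07), and Sars by 0.72 ± 0.10 and -0.84 ± 0.10 (adjusted p = 5.9e-06 and 1.3e-06). Nars, for asparagine, was at 48.7 to 55.3 CPM in Control (median 52.8), 59.4 to 87.8 CPM in Cirrhosis (median 73.6) and 41.6 to 48.9 CPM in Cirrhosis-PTH (median 44.5). It changed by 0.49 ± 0.077 and -0.71 ± 0.077 (adjusted p = 1.6e-05 and 2.8e-07), and Cirrhosis-PTH barely reached the lowest Control mouse.

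Cars, Iars and Yars, for cysteine, isoleucine and tyrosine, also rose, by 0.60 ± 0.17, 0.47 ± 0.078 and 0.34 ± 0.11 (adjusted p = 0.0067, 3.5e-05 and 0.015), and fell with PTH. Tars, for threonine, did not pass in Cirrhosis (0.10 ± 0.11, adjusted p = 0.48) and fell with PTH (-0.44 ± 0.11, adjusted p = 0.0044). Aars and Eprs, for alanine and for glutamate with proline, did not pass in Cirrhosis. Aars was at medians of 108, 97.0 and 79.1 CPM in Control, Cirrhosis and Cirrhosis-PTH, and changed by -0.21 ± 0.090 (adjusted p = 0.054), -0.19 ± 0.090 (adjusted p = 0.11) and -0.40 ± 0.090 in Cirrhosis-PTH against Control (adjusted p = 0.0069). Every Cirrhosis-PTH mouse lay below every Control mouse in Aars, and also in Eprs, whose change of -0.16 ± 0.058 did not pass (adjusted p = 0.093). That kind of separation held for 1.40% of all genes. Without Control replicate 1 or 6 or Cirrhosis replicate 1 or 5, Aars passed as lower in Cirrhosis (adjusted p = 0.037, 0.041, 0.040 and 0.025, in a range of 0.025 to 0.53 over all alternatives). Eprs passed there only without Cirrhosis replicate 3 (adjusted p = 0.019, in a range of 0.019 to 0.40). With PTH against Cirrhosis, Aars passed as lower without Cirrhosis replicate 2 or 3 (adjusted p = 0.027 and 0.048, in a range of 0.027 to 0.24). Aars shares 14.3% of its exon bases with Exosc6 on the same strand, and how reads there were assigned is not given in the sources used here.

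Of the members that still differed between Cirrhosis-PTH and Control, Atf3 passed under every alternative tried and the other 5 did not. Slc7a1 lost its call without Control replicate 2, 3 or 6 (adjusted p = 0.092, 0.076 and 0.080) or Cirrhosis-PTH replicate 3, 5 or 6 (adjusted p = 0.086, 0.055 and 0.079), in a range of 0.011 to 0.092. Stc2 lost it in 15 of 27 alternatives (adjusted p from 0.0047 to 0.22), 11 of which left out 1 library (adjusted p from 0.050 to 0.13): Control replicate 2, 3, 6, 7 or 8, Cirrhosis replicate 1, 4 or 6, or Cirrhosis-PTH replicate 3, 5 or 6. Without Cirrhosis-PTH replicate 3, which held the highest Stc2 level, the change was 1.74 (adjusted p = 0.13). Shmt2 lost its call without Control replicate 2 or 3 (adjusted p = 0.054 and 0.051, in a range of 0.0052 to 0.054). Aars lost it without both Control replicates 7 and 8 (adjusted p = 0.071, in a range of 0.0014 to 0.071). Among members that did not pass, Nars was called lower without Cirrhosis replicate 2 or 5 (adjusted p = 0.042 and 0.045, in a range of 0.026 to 0.26) and Tars without Control replicate 6 or 8 (adjusted p = 0.012 and 0.050, in a range of 0.012 to 0.18).

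Mice of the Cirrhosis group differed from each other over many of the members. Replicate 5 had the highest level of the group in 27 of the 37 members and the lowest in 3. Replicates 2 and 3 had the lowest in 18 and 12. In Control, replicate 1 was highest in 16 members and replicate 6 lowest in 11, and in Cirrhosis-PTH replicate 6 was highest in 12. These ranks were not counted over all genes, so whether they are particular to the members was not tested. The median deviation from the group's mean log2 CPM over the members was 0.29 in replicate 5, -0.26 in replicate 2 and -0.23 in replicate 3. Nupr1 spread furthest, at 79.6 CPM in replicate 5 against 6.31 CPM in replicate 2. Eprs, Sesn2, Trib3, Ddit4 and Shmt2 were instead highest in replicate 3, where Trib3 reached 38.5 CPM. Replicate 5 had the lowest hepatocyte marker sum of the group (24582 CPM), the highest cholangiocyte sum (202 CPM) and the lowest stellate sum (525 CPM). Replicate 2 had the highest macrophage sum (719 CPM), neutrophil sum (83.4 CPM) and exocrine pancreas sum (10.5 CPM). These marker values are given beside the members' order, and their part in it was not tested. Without replicate 5, 30 members were called higher in Cirrhosis against Control and 30 lower with PTH. Over the members, the median coefficient of variation between mice was 21.8% for Control, 19.2% for Cirrhosis and 15.8% for Cirrhosis-PTH.

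**Figure D5:**
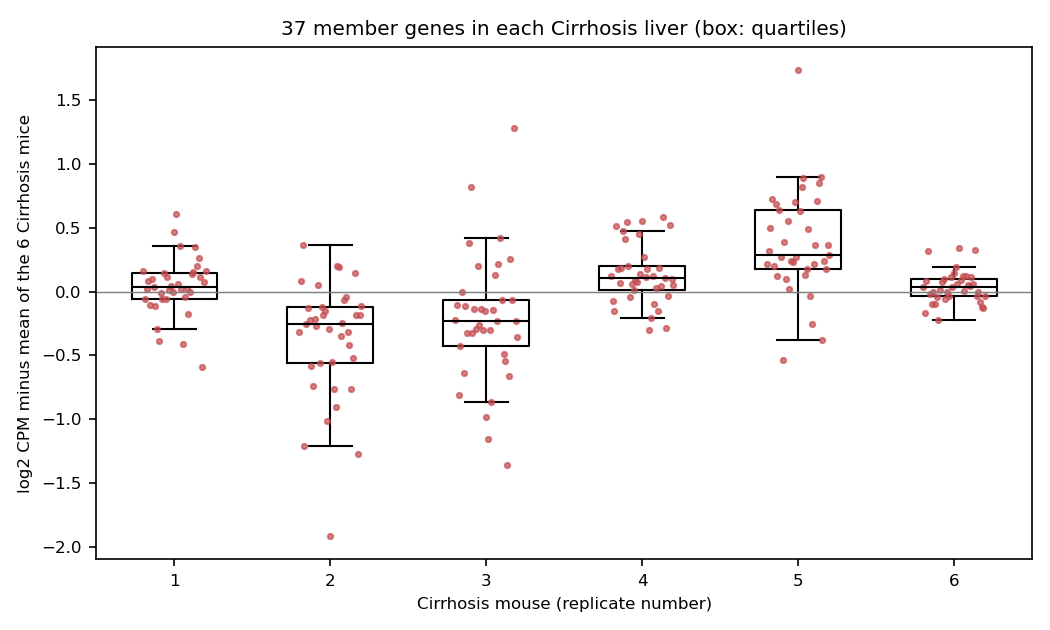
Log2 CPM of the 37 members in each of the 6 Cirrhosis mice minus the mean of the group, 1 point per gene, with boxes for the quartiles and median. The median is 0.29 in replicate 5, -0.26 in replicate 2 and -0.23 in replicate 3.

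Counts over further lists of the pathway stand beside the shares of all genes tested, which were 25.5% higher and 25.0% lower in Cirrhosis and 20.1% higher and 18.6% lower with PTH. Among 15 further genes of eIF2 and its regulators, 5 rose in Cirrhosis, namely Impact (a binding partner of GCN1 that restrains GCN2, 1.09 ± 0.14), Eif2s1 (the eIF2 subunit that is phosphorylated, 0.39 ± 0.073), Eif2ak2, Eif2b4 and Eif2b2. Ppp1r15b, the constitutive eIF2 phosphatase regulator, and Eif2ak1, the haem-regulated kinase, fell, by -0.53 ± 0.058 and -0.48 ± 0.071. The inducible Ppp1r15a rose while the constitutive Ppp1r15b fell. With PTH, 7 of the 15 fell and both Ppp1r15b and Eif2ak1 rose. Of 21 other genes tied to ATF4, 12 rose, with Ero1l (a thiol oxidase, 0.48 ± 0.072) and Tnfrsf10b (a death receptor, 3.29 ± 0.49) having the smallest p. The 5 that fell were Vegfa (-0.82 ± 0.079), Gpt (-1.27 ± 0.19), Cth, Got1 and Herpud1. With PTH, 10 fell and 4 rose, the latter being Vegfa, Gpt, Cth and Got1. Mthfd1l stayed above Control in Cirrhosis-PTH (0.95 ± 0.28, adjusted p = 0.038), and the stress hormone gene Gdf15 lay below it (-1.26 ± 0.37, adjusted p = 0.040).

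Most other one-carbon enzymes were lower in Cirrhosis. Of 29 further one-carbon, glycine and proline enzymes, 22 fell in Cirrhosis and 4 rose. Among the risers were Aldh1l2 (mitochondrial formyl-folate dehydrogenase, 3.73 ± 0.39) and Mthfd2l (0.92 ± 0.20). The falls with the smallest p were those of Oat, which is enriched in pericentral hepatocytes (-4.51 ± 0.19), and Dmgdh (-1.26 ± 0.11). With PTH, 21 rose and 3 fell, among the latter Aldh1l2 (-3.95 ± 0.39). Against Control, Cirrhosis-PTH had Mthfd2l higher and Oat and Srr lower. Shmt2 thus fell with most of this list, while Mthfd2, Phgdh, Psat1, Psph and Aldh18a1 rose.

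The other cytosolic synthetases and their partners had 8 of 14 higher in Cirrhosis, 2 lower (Tarsl2, -0.79 ± 0.083, and Dars, -0.41 ± 0.059) and 10 lower with PTH. Vars (0.82 ± 0.090) and Rars (0.38 ± 0.079) had the smallest p among the risers, and Tarsl2 and Dars rose with PTH. Kars was lower in Cirrhosis-PTH than in Control (-0.25 ± 0.074, adjusted p = 0.038). Of 16 mitochondrial synthetases, 8 were lower in Cirrhosis, led by Nars2 (-0.89 ± 0.10) and Vars2 (-0.63 ± 0.077), and Mars2 alone was higher (0.43 ± 0.12). With PTH, 6 rose and Cars2 and Mars2 fell. Among 19 other amino acid transporters, 9 rose, led by the neutral carriers Slc7a8 (2.14 ± 0.13) and Slc1a4 (2.78 ± 0.18), and 6 fell, led by the hepatocyte carriers Slc38a4 (-1.26 ± 0.12) and Slc38a3 (-1.38 ± 0.14). With PTH, 8 fell and 5 rose (Slc38a4, Slc7a2, Slc38a3, Slc6a6 and Slc43a1). Slc1a5, Slc43a2, Slc7a8, Slc38a1 and Slc1a4 stayed higher in Cirrhosis-PTH than in Control, with changes from 0.48 for Slc7a8 to 1.18 for Slc1a5.

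Most genes of the IRE1 and ATF6 branches, the other arms of the unfolded protein response, moved with the circuit. Of 16 genes, 13 rose in Cirrhosis and none fell, led by the chaperone Hspa5 (1.58 ± 0.13) and Creld2 (2.06 ± 0.16). Xbp1 was among those not called there (0.062 ± 0.12, adjusted p = 0.70). With PTH 15 fell. In Cirrhosis-PTH against Control, Pdia6, Ern1, Calr, Pdia4 and Hyou1 passed as lower, with changes from -0.37 for Pdia4 to -0.56 for Calr.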

How the data were processed

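Liver RNA of 18 mice in 3 groups of 6 was measured by RNA-seq. The authors deposited unscaled whole-number gene counts. The submitters' processing notes list Trim Galore, cutadapt 4.2, Bowtie2, Bowtie 1.3.1, HISAT2 2.2.1, StringTie 2.1.5 and the build GRCm38, with no role given. Strandedness, annotation and filters are not given in the sources used here. The 3 groups were fitted together in edgeR 4.0.16 under R 4.3.3, with filterByExpr, TMM scaling, the robust two-sided quasi-likelihood F-test and Benjamini-Hochberg adjustment over 21914 genes (threshold 0.05). CPM is the count over the TMM-scaled library size. The TMM factors were 0.578 to 0.930 in Control, 1.21 to 1.37 in Cirrhosis and 0.854 to 1.23 in Cirrhosis-PTH. Control and Cirrhosis did not overlap in them, and small log2 fold changes depend on this scaling. Log2 CPM used a prior count of 2, and per-kilobase levels used GENCODE M21 exon lengths (54723 of 54752 identifiers matched). SE came from the F statistic. The table held 18354 genes without a count, 0 rows naming no gene and 0 unmapped sample columns.

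Precision depends on counting depth and on the spread between mice of a group. Libraries held 24.5 to 67.5 M counts outside ribosomal RNA loci. Members, roles, lists, tests and alternatives were chosen with earlier results of these data known, so members are described by counts and medians beside all genes. Values per group were given for Atf4, up to 4 members per role with the smallest p in Cirrhosis against Control, up to 2 in Cirrhosis-PTH against Cirrhosis and any member called against its role's majority. From each further list, up to 2 called genes per direction and all genes of counts of 5 or fewer were named. Some genes of the one-carbon list are not reported here by name. Promoters are from RefSeq (GRCm38.p6), found for 32 of 37 members, and not for Cars, Eif4ebp1, Nars, Slc7a5 and Wars. The fitting was tested on simulated data. Alternatives were RLE size factors, DESeq2 1.42.0, other low-count filters, 2-group fits, a replicate block, removal of ribosomal RNA loci, thinning to 24.5 M counts, and leaving out libraries. Nothing in the labels says that mice came from separate cages or litters, so p-values measure only the spread between these mice.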

Additional observations from a re-analysis of the deposited data

Results flagged for a closer look

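Within a group of 6 mice, 1 library stood far from the other 5 in 3 of the 111 sets of member levels examined (37 members in 3 groups), with a gap to its nearest neighbour past the critical value of Dixon's test for a group of that size. Chance flags about 1 in 20 such sets. Cars was highest in Control replicate 1, at 26.7 CPM, with the other Control mice at 15.1 to 17.2 CPM. Eif2ak3 was lowest in Control replicate 6, at 9.29 CPM, against 13.4 to 15.7 CPM. Eif2ak4 was highest in Cirrhosis-PTH replicate 6, at 12.4 CPM, against 9.71 to 10.5 CPM.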

How the results depend on the processing

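Values were recomputed under 27 alternatives, or 26 for Pycr1, which did not pass the filter of at least 1 CPM in 6 or more libraries. Of the called members, 28 of 31 in Cirrhosis against Control, 31 of 31 in Cirrhosis-PTH against Cirrhosis and 1 of 6 in Cirrhosis-PTH against Control passed in every one run, and no called value changed sign. Members called higher in Cirrhosis numbered 27 to 30, and those lower with PTH 30 to 31. Leaving out 1 library gave 1 to 2 members lower in Cirrhosis and 1 to 3 higher in Cirrhosis-PTH than in Control. The replicate numbers did not pair the mice: the correlation of same-numbered deviations was -0.064 to 0.051, and no mouse correlated best with its own number. With the replicate block, Yars, Eif2ak4 and Cars lost their call in Cirrhosis (adjusted p = 0.14, 0.095 and 0.096, with ranges over alternatives of 0.0035 to 0.14, 0.0044 to 0.095 and 0.00044 to 0.096), 1 member instead of 3 was lower in Cirrhosis-PTH than in Control, and Asns (adjusted p = 0.10, range 3.0e-05 to 0.10) and Aars (adjusted p = 0.065, range 0.0014 to 0.071) were no longer called there.

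Values that changed sign were uncalled and from Cirrhosis-PTH against Control: with the replicate block, -0.00078 for Slc38a2 and -0.060 for Wars; thinned, -0.0059 for Slc7a5; without both Control replicates 7 and 8, 0.0090 for Eif4ebp1, 0.038 for Eif2ak3 and 0.14 for Mthfd2. Leaving out 1 library gave -0.070 to 0.016 for Cebpg, -0.080 to 0.22 for Sesn2, -0.051 to 0.057 for Slc38a2, -0.030 to 0.22 for Pycr1 and -0.054 to 0.13 for Slc7a5. The cause was not tested. Over all genes tested, 543 were lower in Cirrhosis-PTH than in Control, but 841 with DESeq2, 245 with the replicate block, 334 without Control replicate 2, and 349 and 337 without Cirrhosis-PTH replicate 3 and 6. Thinned counts called Phgdh higher there (adjusted p = 0.043, range 0.043 to 0.37), and DESeq2 called Eprs lower (adjusted p = 0.041, range 0.041 to 0.21). Depth limits Slc7a11, Stc2, Phgdh, Psat1 and Nupr1 most, which had 40 to 164 counts in all of Control.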
